A study of Mus musculus with 12 samples.

Results

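The 10 genes described here encode transcription factors that define cell lineages in the mammary epithelium: Elf5, Ehf, Elf3, Foxi1, Foxa1, Gata3, Sox9, Sox10, Grhl2 and Trp63. They were chosen by name, and were found in the count files by matching their Ensembl identifiers to mouse gene symbols, which gave 10 of the 52636 genes listed. Foxi1 was chosen for its low level in p53ERTAM tumors, so its difference between vectors is given as a description without a test. All 10 genes passed the filter on low counts, Foxi1 through the empty-vector libraries in which it was high.

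Mouse mammary epithelium has an inner luminal layer, whose progenitors give rise to milk-producing alveolar cells and to hormone-sensing cells, and an outer basal layer of contractile myoepithelial cells. ELF5 drives alveolar fate in luminal progenitors, GATA3 and FOXA1 are tied to the hormone-sensing luminal state, and p63, the product of Trp63, maintains basal cells. SOX9 and SOX10 are known from progenitor-like states of mammary cells and tumors, and GRHL2, EHF and ELF3 from the upkeep of epithelial gene expression.

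The data were RNA sequencing libraries of bulk tumors from 2153L, a mammary tumor of a genetically engineered mouse (GEM) labelled as triple-negative breast cancer (TNBC), transplanted to the mammary fat pad in Balbc females. The tumors carried either p53ERTAM, a fusion of p53 with an estrogen receptor part that responds to tamoxifen, or an empty vector (EV). They received a combination (Combo) of the IRE1α RNase inhibitor ORIN1001 at 150 mg/kg daily with docetaxel, a microtubule drug, at 20 mg/kg weekly, or vehicle, for 8 days. The 4 groups of 3 libraries each were p53ERTAM with Combo, p53ERTAM with vehicle, EV with Combo and EV with vehicle. All 4 groups share the same tumor line and host, so the results describe 1 tumor line. The labels do not state which mice received tamoxifen or whether the 3 libraries of a group came from separate animals, so p-values measure the spread between these libraries, which may be partly technical.

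The libraries held 13484873 to 24424964 counts, and 17970 genes were tested. Cdkn1a, a p53 target, had 92.2 to 200 CPM (counts scaled to a common library size) in the 6 p53ERTAM libraries and 22.3 to 53.9 CPM in the 6 EV libraries, with no overlap. By edgeR's quasi-likelihood test Mdm2, also a p53 target, was higher in p53ERTAM tumors by 0.46 on the log2 scale under vehicle (adjusted p = 0.0157) and 0.48 under Combo (adjusted p = 0.00987). Trp53 itself differed by 0.17 under vehicle, which did not pass (adjusted p = 0.356), and by 0.40 under Combo (adjusted p = 0.0338). The 3 EV Combo libraries stood apart in composition: the noncoding gene Gm26917 took 10.7% to 11.1% of their counts, against 0.133% to 1.10% in the other 9 libraries, and protein-coding genes took 80.9% to 81.7%, against 86.7% to 95.8%. The part of this difference in the results that use EV Combo libraries was not tested beyond a fit restricted to protein-coding genes, which leaves Gm26917 out and whose values are given beside several of those results. Pgr, the progesterone receptor gene, averaged under 1 CPM in every group, while Erbb2 averaged 205 and 246 CPM in p53ERTAM tumors with Combo and with vehicle, and 252 and 316 CPM in EV tumors with Combo and with vehicle. Esr1, the estrogen receptor gene, averaged 37.5 and 30.6 CPM in p53ERTAM tumors with Combo and with vehicle, and 10.4 and 9.10 CPM in EV tumors with Combo and with vehicle. How many of the Esr1 counts came from the receptor part of the fusion was not tested.

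Per unit of transcript length, Sox10 was the most abundant of the 10 genes in every group. Its mean level was 493 and 447 TPM (counts per exon length, scaled to a common total) in p53ERTAM tumors with Combo and with vehicle, and 669 and 509 TPM in EV tumors with Combo and with vehicle. Among protein-coding genes it stood at percentiles from 99.28 to 99.72 over the groups. Ehf came next in 3 groups, and in p53ERTAM tumors with vehicle Elf3, Sox9 and Ehf had overlapping TPM ranges. Gata3 averaged 2.29 and 1.73 TPM in p53ERTAM tumors and 2.13 and 1.03 TPM in EV tumors, in each pair with Combo named before vehicle, and it was the lowest of the 10 in both EV groups. Foxi1 was the lowest in both p53ERTAM groups, at a mean of 1.18 TPM with Combo and 1.15 TPM with vehicle, whereas in EV tumors it averaged 101.5 TPM with Combo and 36.8 TPM with vehicle. In the EV Combo group the TPM ranges of Elf3, Elf5, Foxi1 and Grhl2 overlapped, so their order there is within the spread.

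**Figure D1:**
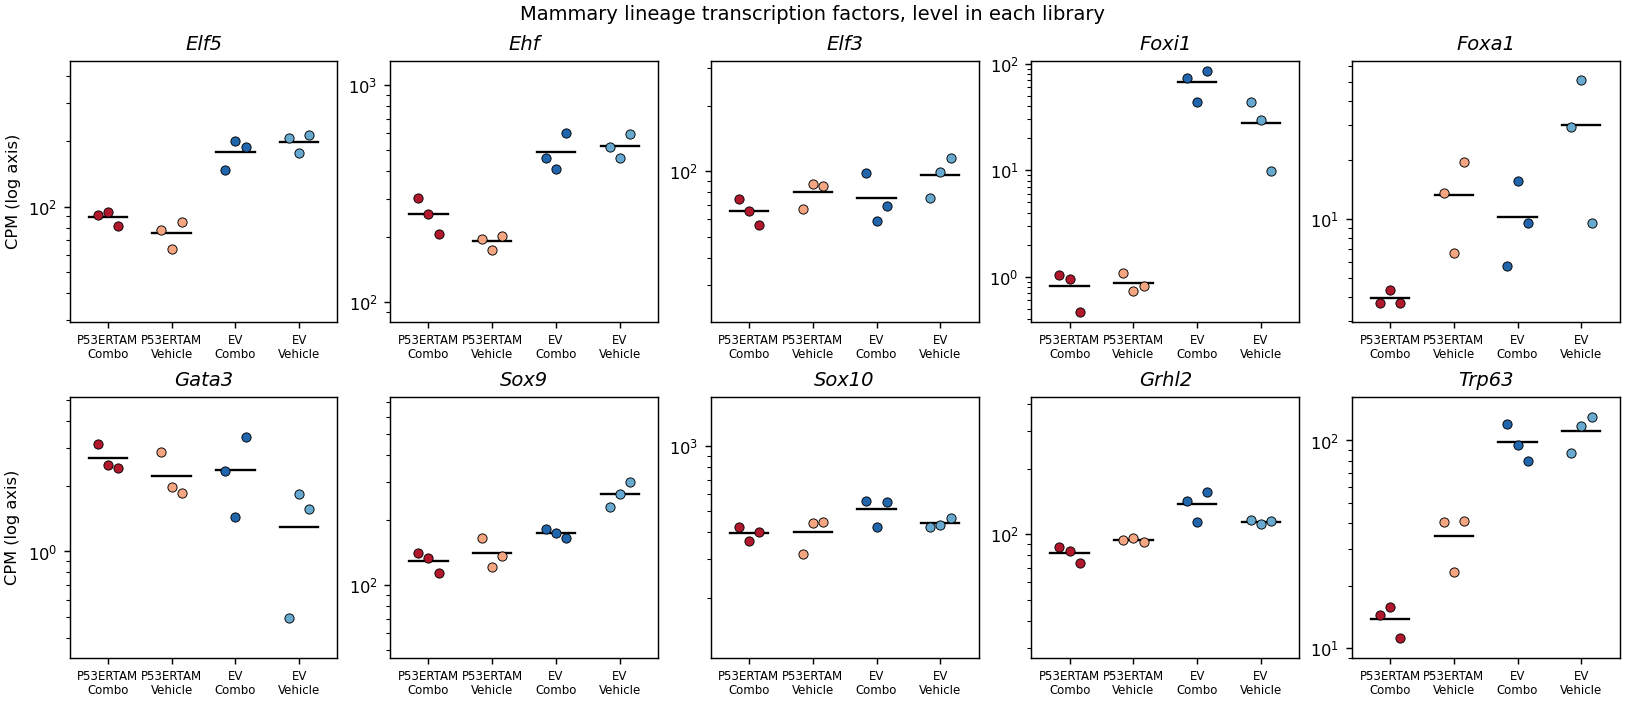
Level of each of the 10 genes in every library, in CPM on a log axis whose range differs between panels. Points are libraries, bars are group means, and the groups run p53ERTAM Combo, p53ERTAM Vehicle, EV Combo and EV Vehicle. The p53ERTAM points of Elf5, Ehf, Sox9, Grhl2, Trp63 and Foxi1 all lie below the EV points, and those of Elf3, Foxa1, Gata3 and Sox10 overlap them. Foxi1 was chosen for its low level in p53ERTAM tumors. The share of all genes that separate in this way is not given, so the separation describes the points and is no result about these genes.

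Under vehicle 4 of the 9 genes tested were lower in p53ERTAM than in EV tumors by the test across all genes: Elf5, Ehf, Sox9 and Trp63. Under Combo 6 were lower: these same genes with Sox10 and Grhl2. None of the 9 genes tested was called higher in either comparison. Of all genes tested, 37.8% were called under vehicle (17.9% higher and 19.8% lower) and 44.1% under Combo (22.1% higher and 22% lower), so the 4 of 9 genes called under vehicle and the 6 of 9 called under Combo, all lower, stand beside backgrounds of 37.8% and 44.1% called and of 19.8% and 22% lower. The median log2 fold change of the 9 genes was -0.90 under vehicle, against 0.01 over all genes tested, and -0.76 under Combo, against 0.06 over all genes tested. Calls rest on an adjusted p below 0.05 from edgeR's quasi-likelihood test with Benjamini-Hochberg adjustment over all genes tested. In bulk tumors, fewer cells of a type and less RNA per cell cannot be told apart.

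**Figure D2:**
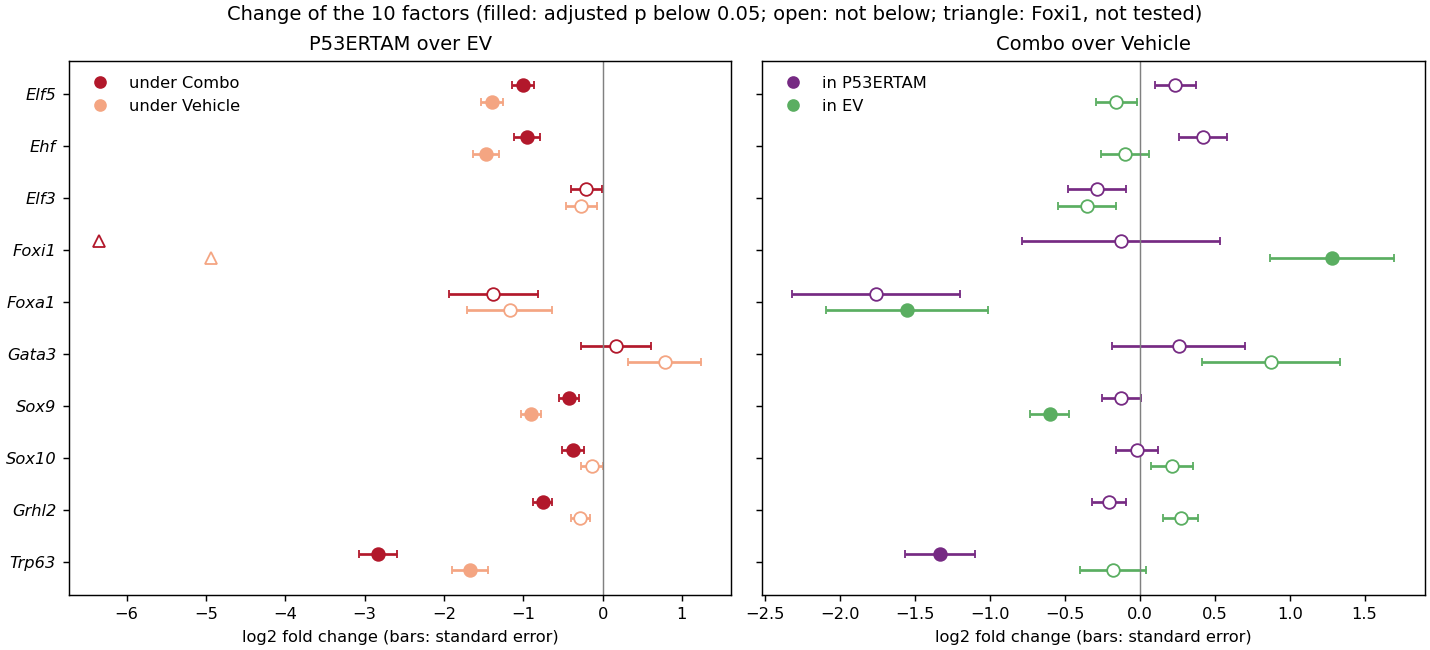
Log2 fold change of each gene for p53ERTAM over EV (left) and Combo over vehicle (right), with standard errors as bars. Filled points passed an adjusted p of 0.05, open points did not, and triangles mark Foxi1 where it was not tested. Trp63 has the lowest tested values in both vector comparisons and is the gene whose change with Combo passed the test in p53ERTAM tumors.

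The ETS-family genes Elf5 and Ehf lie beside each other on mouse chromosome 2. Elf5 occupies chr2:103411688-103450989 on the plus strand of GRCm38 and Ehf chr2:103263433-103303278 on the minus strand, 108409 bases apart, with no protein-coding gene between them. Elf5, the alveolar regulator, had 91.6, 94.8 and 81.4 CPM in p53ERTAM Combo libraries, 78.0, 64.0 and 85.3 CPM in p53ERTAM vehicle libraries, 147, 201 and 188 CPM in EV Combo libraries and 207, 176 and 215 CPM in EV vehicle libraries. All 6 p53ERTAM libraries were lower than all 6 EV libraries, and the treatments overlapped within each vector. Elf5 was 2.63-fold lower in p53ERTAM than in EV tumors under vehicle (log2 fold change -1.39, SE 0.141, adjusted p = 3.655e-05) and 2.002-fold lower under Combo (-1.002, SE 0.139, adjusted p = 0.000118). In the fit of protein-coding genes alone the value under Combo was -1.11. The difference of Elf5 between Combo and vehicle was 0.24 on the log2 scale in p53ERTAM tumors (adjusted p = 0.317) and -0.16 in EV tumors (adjusted p = 0.387), neither past the threshold.

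Ehf, an epithelial factor that also acts in mammary and airway epithelia, had 302, 255 and 206 CPM in p53ERTAM Combo libraries, 195, 174 and 202 CPM in p53ERTAM vehicle libraries, 459, 413 and 602 CPM in EV Combo libraries and 519, 463 and 597 CPM in EV vehicle libraries. Every p53ERTAM library was again below every EV library. Ehf was 2.77-fold lower in p53ERTAM than in EV tumors under vehicle (log2 fold change -1.47, SE 0.164, adjusted p = 6.401e-05) and 1.93-fold lower under Combo (-0.95, SE 0.162, adjusted p = 0.000494), a value of -1.06 among protein-coding genes alone. In p53ERTAM tumors the 3 Combo libraries all exceeded the 3 vehicle libraries, yet the change of 0.42 on the log2 scale did not pass the test (adjusted p = 0.128). Cat, which encodes the antioxidant enzyme catalase and lies 2860 bases from Elf5 on its other side, was 0.39 higher on the log2 scale in p53ERTAM tumors under vehicle (adjusted p = 0.0315) and 0.48 higher under Combo (adjusted p = 0.0102), opposite in sign to Elf5 and Ehf.

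Elf3, the third ETS-family gene, at chr1:135253575-135258568 on the minus strand, passed the test in none of the comparisons. It had 74.4, 65.7 and 56.6 CPM in p53ERTAM Combo libraries, 67.2, 87.5 and 85.2 CPM in p53ERTAM vehicle libraries, 98.1, 58.9 and 69.4 CPM in EV Combo libraries and 75.3, 99.1 and 115 CPM in EV vehicle libraries. The groups overlapped in all 4 comparisons, and the change of -0.35 with Combo in EV tumors (adjusted p = 0.167) passed only without EV Combo replicate 1 (-0.59, adjusted p = 0.0322). Its log2 fold change was -0.27 between vectors under vehicle (SE 0.195, adjusted p = 0.296) and -0.20 under Combo (SE 0.196, adjusted p = 0.419). An antisense gene, Gm26642, shares 162 exon bases with Elf3 but held 43 counts over the 12 libraries, against 18383 for Elf3.

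Of the luminal progenitor and alveolar genes, a list of 20 of which 17 were tested, 9 were lower and 2 higher in p53ERTAM than in EV tumors under vehicle, with a list median of -0.80 on the log2 scale against 0.01 over all genes. The genes with the smallest p were Prlr, the prolactin receptor (-2.05, SE 0.241, adjusted p = 9.756e-05), Ltf, which encodes lactoferrin (-3.00, SE 0.429, adjusted p = 0.000328), the receptor gene Kit (-1.04, SE 0.201, adjusted p = 0.00172) and the milk-protein gene Wfdc18 (-1.23, SE 0.257, adjusted p = 0.00301). Under Combo 4 were lower and 5 higher, with a list median of 0.38. There Prlr, Ltf and Kit were lower by log2 changes of -1.55, -2.41 and -1.10, while Mfge8, a milk-fat-globule gene, was higher by 1.16 (SE 0.147, adjusted p = 6.148e-05). The milk gene Wap was listed at 0 in p53ERTAM vehicle, EV Combo and EV vehicle libraries, and the milk gene Glycam1 in p53ERTAM vehicle and EV Combo libraries. The counts of higher calls were small, and under vehicle the count of 2 became 1 without p53ERTAM vehicle replicate 2 or 3.

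Foxi1 encodes the forkhead factor that specifies ionocytes, the acid- and ion-transporting cells of kidney, inner ear and airway. The gene lies at chr11:34204338-34208089 on the minus strand of GRCm38. It had 26, 22 and 12 counts in p53ERTAM Combo libraries, 22, 10 and 14 counts in p53ERTAM vehicle libraries, 1161, 608 and 1485 counts in EV Combo libraries and 877, 680 and 190 counts in EV vehicle libraries. On the CPM scale these were 0.471 to 1.05 with Combo and 0.734 to 1.09 with vehicle in p53ERTAM tumors, and 43.9 to 84.6 with Combo and 9.90 to 43.3 with vehicle in EV tumors. EV vehicle replicate 3 was the lowest EV library, and it was still above every p53ERTAM library. The ratio of group means was 81.8-fold lower in p53ERTAM than in EV tumors under Combo and 31.4-fold lower under vehicle, values that describe the choice of the gene and carry no test. Of the counts between 1 and 20 in a library, 66.3% to 71.7% were even numbers, against 49.2% to 52.1% of counts above 200, and all 6 p53ERTAM counts of Foxi1 were even. If the 2 reads of a pair were counted separately, fewer fragments than counts lie behind these values and the counts are not independent, which was not tested.

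Foxi1 was chosen for its loss in p53ERTAM tumors, and the choice named no response to Combo. It did not state under which treatment the loss was seen, so the EV libraries compared next may have entered it. The p-values of that comparison are therefore no support independent of the choice. In EV tumors all 3 Combo libraries were above the 3 vehicle libraries, by a narrow margin at 43.9 against 43.3 CPM, and Foxi1 was 2.44-fold higher with Combo (log2 fold change 1.28, SE 0.414, adjusted p = 0.0272; 1.41 among protein-coding genes alone, adjusted p = 0.0167). The call was lost without EV Combo replicate 1 (adjusted p = 0.0705) or replicate 3 (adjusted p = 0.0931), with no filter on low counts (adjusted p = 0.107) and in a fit of the 2 EV groups alone (adjusted p = 0.0593). In p53ERTAM tumors the change was -0.13 on the log2 scale (SE 0.662, adjusted p = 0.934), at 10 to 26 counts per library.

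The windows of 300 bases around the annotated starts of Foxi1 and Elf5, which were both low in p53ERTAM tumors, are shown with the letters GGAAG, the core of ETS-factor motifs, searched on both strands, and the SOX-factor letters ACAAT in capitals. The sequences are from RefSeq on GRCm38.p6, run 5′ to 3′ on the gene's strand from 250 bases before to 50 after the start, and cover chr11:34208040-34208339 for Foxi1 and chr2:103411848-103412147 and chr2:103423818-103424117 for 2 starts of Elf5.
Foxi1: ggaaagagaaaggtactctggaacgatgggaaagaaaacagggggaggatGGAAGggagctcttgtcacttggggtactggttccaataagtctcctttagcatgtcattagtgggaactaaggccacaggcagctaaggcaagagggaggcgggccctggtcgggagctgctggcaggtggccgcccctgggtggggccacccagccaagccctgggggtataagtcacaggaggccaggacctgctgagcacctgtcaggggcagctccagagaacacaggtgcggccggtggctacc
Elf5, upstream start: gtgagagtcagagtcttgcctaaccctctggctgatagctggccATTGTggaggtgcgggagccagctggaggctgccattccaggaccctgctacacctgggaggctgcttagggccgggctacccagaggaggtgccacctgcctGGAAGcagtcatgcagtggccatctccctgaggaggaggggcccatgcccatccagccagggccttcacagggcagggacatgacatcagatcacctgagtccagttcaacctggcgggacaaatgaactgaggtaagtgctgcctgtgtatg
Elf5, downstream start: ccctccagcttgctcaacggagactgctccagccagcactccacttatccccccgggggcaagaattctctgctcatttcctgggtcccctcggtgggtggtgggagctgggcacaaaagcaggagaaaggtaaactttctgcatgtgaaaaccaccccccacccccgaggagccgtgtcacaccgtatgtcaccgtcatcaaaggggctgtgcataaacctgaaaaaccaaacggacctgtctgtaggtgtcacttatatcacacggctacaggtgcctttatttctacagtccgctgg
Foxi1 and the upstream window of Elf5 each hold 1 GGAAG match, which 71.4% of all 32851 such windows hold, and the upstream window of Elf5 holds 1 ACAAT match on the opposite strand, as 31% of windows do. The downstream window of Elf5 holds none of the motifs searched. No p53 half-site, a motif that 8.36% of windows hold, was found in any of the 6 windows available for 5 of the 10 genes. A match or its absence describes these letters only.

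Among genes linked to FOXI1 in ionocytes, 10 of the 20 listed were tested and 4 were lower in p53ERTAM than in EV tumors under vehicle, none higher, beside the background of 37.8% called and 19.8% lower. The list median was -0.61 on the log2 scale, against 0.01 over all genes. Atp6v1b1, a subunit of the vesicular proton pump and a known FOXI1 target in kidney and inner ear, had 1.49 to 4.23 CPM with Combo and 1.76 to 4.41 CPM with vehicle in p53ERTAM tumors, against 69.1 to 152 CPM with Combo and 21.8 to 29.5 CPM with vehicle in EV tumors. Its groups did not overlap between vectors, nor between treatments within EV tumors. Atp6v1b1 was lower in p53ERTAM tumors by a log2 change of -3.03 under vehicle (SE 0.399, adjusted p = 0.000212) and -5.17 under Combo (SE 0.415, adjusted p = 5.325e-06), and it was 4.38-fold higher with Combo in EV tumors (log2 fold change 2.13, SE 0.352, adjusted p = 0.000845). Kit, which is also in the luminal progenitor list, was lower by -1.04 under vehicle and -1.10 under Combo (adjusted p = 0.000851). Cftr, the chloride channel gene, was lower under vehicle (-1.80, SE 0.462, adjusted p = 0.00845), and in EV tumors it fell with Combo (-1.93, SE 0.468, adjusted p = 0.00572), opposite to Foxi1. Car12, a carbonic anhydrase gene, was lower by -0.46 under vehicle (adjusted p = 0.0398).

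Under Combo 2 ionocyte genes were lower in p53ERTAM tumors and 2 higher, with a list median of -0.37 on the log2 scale against 0.06 over all genes. The higher ones were Car2, another carbonic anhydrase gene (1.24, SE 0.435, adjusted p = 0.0333), and Atp6v0d2, a proton-pump subunit gene (2.72, SE 1.005, adjusted p = 0.0416). The count of 2 higher became 0 without EV Combo replicate 1 or 2 or p53ERTAM Combo replicate 1 or 3, and 1 without EV Combo replicate 3, p53ERTAM Combo replicate 2 or p53ERTAM vehicle replicate 1. Under vehicle the count of 0 higher became 1 without EV vehicle replicate 2, EV Combo replicate 3 or p53ERTAM Combo replicate 1. Other defining ionocyte genes were at or near 0: Atp6v1g3, Slc4a9 and Rhcg had no count in any of the 4 groups, and Ascl3 averaged at most 0.0792 CPM in any group. The list as a whole summed to 281 to 351 TPM with Combo and 143 to 272 TPM with vehicle in p53ERTAM tumors, and 464 to 632 TPM with Combo and 331 to 392 TPM with vehicle in EV tumors.

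**Figure D3:**
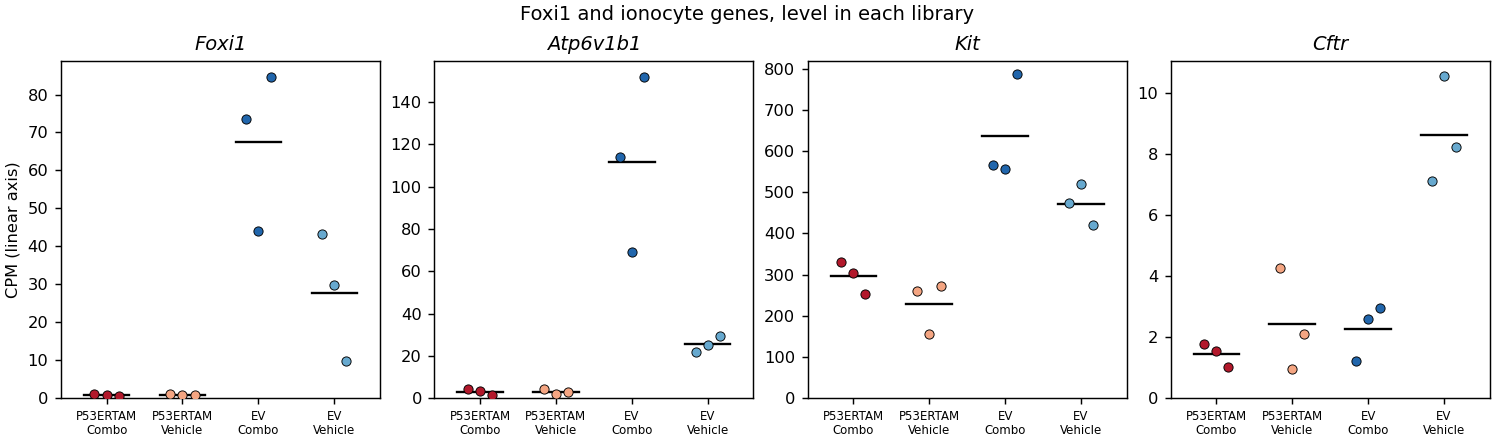
CPM of Foxi1 and of 3 ionocyte genes in every library, on linear axes from 0, with points for libraries and bars for group means. Foxi1 and Atp6v1b1 lie near 0 in the 6 p53ERTAM libraries and are higher with Combo than with vehicle in EV tumors, Kit is lower in all p53ERTAM libraries, and Cftr is highest in the EV vehicle libraries.

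Foxa1, the pioneer factor of hormone-sensing luminal cells, at chr12:57540628-57546916 on the minus strand, varied widely within groups. It had 3.71, 4.33 and 3.73 CPM in p53ERTAM Combo libraries, 13.5, 6.68 and 19.5 CPM in p53ERTAM vehicle libraries, 5.71, 15.5 and 9.46 CPM in EV Combo libraries and 29.4, 51.0 and 9.48 CPM in EV vehicle libraries. The p53ERTAM Combo libraries were the 3 lowest, and EV vehicle ranged most widely. Foxa1 was 2.94-fold lower with Combo than with vehicle in EV tumors (log2 fold change -1.56, SE 0.542, adjusted p = 0.0385; -1.43 among protein-coding genes alone, adjusted p = 0.04935), although the groups overlapped. Leaving out EV Combo replicate 1 or 3, either of the EV vehicle replicates 1 and 2, p53ERTAM vehicle replicate 1 or any 1 p53ERTAM Combo replicate ended this call, with adjusted p from 0.0527 to 0.1925, and the value was -0.89 without EV vehicle replicate 2. Only 8 of 19 alternative fits kept the call, so some of the settings that left out no library lost it as well. In p53ERTAM tumors the 3 Combo libraries lay below the 3 vehicle libraries, but the change of -1.76 (SE 0.561, adjusted p = 0.0810) passed only without EV vehicle replicate 3 among the fits that left out a library (adjusted p = 0.0243). Between vectors the change was -1.17 under vehicle (adjusted p = 0.103) and -1.38 under Combo (adjusted p = 0.0646), and the average over both treatments passed at -1.28 (SE 0.387, adjusted p = 0.0198). The change under vehicle passed without EV vehicle replicate 3 (-1.57, adjusted p = 0.0162). That under Combo passed in 6 of 19 alternative fits. Among them were the fits without EV Combo replicate 1 (adjusted p = 0.0457), without EV vehicle replicate 2 (adjusted p = 0.0361) or 3 (adjusted p = 0.0179) and of protein-coding genes alone (-1.49, adjusted p = 0.0404).

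The window around the annotated start of Foxa1, chr12:57546062-57546361 (RefSeq, GRCm38.p6, minus strand), is shown because it holds a match to the forkhead motif TGTTTAC, here on the opposite strand and in capitals, that its own protein family binds.
Foxa1: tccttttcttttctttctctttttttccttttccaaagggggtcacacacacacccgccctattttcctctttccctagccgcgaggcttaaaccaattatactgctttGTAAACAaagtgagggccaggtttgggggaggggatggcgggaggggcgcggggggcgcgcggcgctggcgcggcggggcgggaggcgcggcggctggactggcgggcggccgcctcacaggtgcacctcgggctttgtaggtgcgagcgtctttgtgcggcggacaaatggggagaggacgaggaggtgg
Of all such windows 3.65% hold this forkhead match on either strand.

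Gata3, the zinc-finger regulator of luminal differentiation, at chr2:9857078-9890034 on the minus strand, was close to the lower limit of measurement. It had 78, 58 and 62 counts in p53ERTAM Combo libraries, 58, 27 and 32 counts in p53ERTAM vehicle libraries, 37, 20 and 59 counts in EV Combo libraries and 10, 42 and 30 counts in EV vehicle libraries. On the CPM scale all 3 p53ERTAM vehicle libraries (1.87 to 2.88 CPM) lay above all 3 EV vehicle libraries (0.493 to 1.84 CPM), the opposite order to the other members that separated the vectors. The change of 0.79 on the log2 scale did not pass the test (SE 0.459, adjusted p = 0.194), nor did the change of 0.88 with Combo in EV tumors (SE 0.459, adjusted p = 0.145). Within EV vehicle the libraries spread from 10 to 42 counts.

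Of 15 hormone-sensing luminal genes tested from a list of 19, 4 were higher and 4 lower in p53ERTAM than in EV tumors under vehicle, and 4 were higher and 2 lower under Combo. The list median was -0.72 on the log2 scale under vehicle and 0.09 under Combo, against 0.01 and 0.06 over all genes. Prlr and Wnt4, a signal released by hormone-sensing cells, were lower under vehicle by log2 changes of -2.05 and -2.27, and Wnt4 was lower by -2.35 under Combo (SE 0.293, adjusted p = 5.383e-05). Esr1 was higher by 1.75 under vehicle and 1.86 under Combo, with the limit on its counts given above. Krt8, a luminal keratin gene, was lower by -1.36 under vehicle (SE 0.230, adjusted p = 0.000837), and Tnfsf11, which encodes the RANK ligand, was higher by 1.98 under Combo (SE 0.566, adjusted p = 0.0126). The counts of 4 higher became 2 without p53ERTAM vehicle replicate 3 in the first comparison and without p53ERTAM Combo replicate 3 in the second.

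Sox9, which acts in cartilage and in epithelial progenitors, lies at chr11:112782224-112787760 on the plus strand. It had 140, 134 and 114 CPM in p53ERTAM Combo libraries, 165, 122 and 136 CPM in p53ERTAM vehicle libraries, 182, 174 and 166 CPM in EV Combo libraries and 230, 264 and 298 CPM in EV vehicle libraries. The EV vehicle libraries were the 3 highest, the EV Combo libraries came next, and all p53ERTAM libraries were lower. Sox9 was 1.87-fold lower in p53ERTAM than in EV tumors under vehicle (log2 fold change -0.90, SE 0.131, adjusted p = 0.000264). Under Combo the difference was -0.42 (SE 0.130, adjusted p = 0.0179), and this call was lost without EV Combo replicate 1 (adjusted p = 0.0605) or p53ERTAM Combo replicate 3 (adjusted p = 0.0932). In the fit of protein-coding genes alone it was -0.53. Combo lowered Sox9 1.52-fold in EV tumors (log2 fold change -0.60, adjusted p = 0.00302; -0.47 among protein-coding genes alone, adjusted p = 0.0117), a call that held in all 19 alternative fits, while the difference in p53ERTAM tumors was -0.12 (adjusted p = 0.597). The difference between these responses was 0.48 on the log2 scale and did not pass (SE 0.184, adjusted p = 0.0565). It passed in 3 of 18 alternative fits, among them those without EV vehicle replicate 1 (adjusted p = 0.0340) or p53ERTAM vehicle replicate 1 (adjusted p = 0.0277).

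BC006965, a noncoding transcript on the opposite strand that begins 248 bases from Sox9 and shares no exon bases with it, moved differently. It had 83.8, 84.2 and 52.1 CPM in p53ERTAM Combo libraries, 107, 102 and 69.8 CPM in p53ERTAM vehicle libraries, 291, 263 and 365 CPM in EV Combo libraries and 117, 104 and 125 CPM in EV vehicle libraries. The EV Combo libraries were the 3 highest, where Sox9 had fallen. BC006965 was higher with Combo in EV tumors by 1.41 on the log2 scale (SE 0.201, adjusted p = 0.000344) and lower in p53ERTAM than in EV tumors under Combo by -2.06 (SE 0.205, adjusted p = 1.318e-05).

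Cartilage genes linked to SOX9, which drives them in chondrocytes, were higher where Sox9 was lower in a pair of comparisons. Of 13 tested from a list of 16, 9 were higher and none lower in p53ERTAM than in EV tumors under vehicle, where Sox9 was lower, with a list median of 1.54 on the log2 scale against 0.01 over all genes. Col9a2 exceeded its EV level by 1.58 on the log2 scale (SE 0.131, adjusted p = 1.034e-05), Comp by 3.99 (SE 0.469, adjusted p = 0.000106), Col11a1 by 3.18 and Col11a2 by 1.63. With Combo in EV tumors 7 were higher and none lower, where Sox9 fell, with a list median of 1.14 against -0.07 over all genes, and these included Col11a2 (4.41, SE 0.361, adjusted p = 1.998e-05), Col9a2 (0.91), Col9a3 (0.50) and Col2a1 (1.92, SE 0.423, adjusted p = 0.00441). In p53ERTAM against EV tumors under Combo 2 were higher and 4 lower (median 0.14, against 0.06 over all genes), with Comp higher by 3.34 and Col11a2, Col9a3 and Snorc lower by -3.36, -0.89 and -3.25. The count of none lower with Combo became 1 without EV vehicle replicate 2. Of 10 fibroblast markers 7 were higher in both of the first pair of comparisons, and their part in these counts was not tested.

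Sox10, a neural crest and mammary stem-like factor, at chr15:79154913-79164490 on the minus strand, had the smallest called difference of the 10 genes. It had 424, 363 and 402 CPM in p53ERTAM Combo libraries, 317, 443 and 446 CPM in p53ERTAM vehicle libraries, 557, 425 and 554 CPM in EV Combo libraries and 424, 434 and 465 CPM in EV vehicle libraries. The p53ERTAM Combo libraries all lay below the EV Combo libraries, by 424 against 425 CPM at the nearest, and the vehicle groups overlapped. Under Combo the difference passed at -0.37 on the log2 scale (SE 0.141, adjusted p = 0.0472). Leaving out any 1 p53ERTAM Combo replicate, EV Combo replicate 1 or 3, or either of the EV vehicle replicates 1 and 2 ended that call, with adjusted p from 0.05396 to 0.1533, and in the fit of protein-coding genes alone it was -0.48 (adjusted p = 0.0138). The call held in 11 of 19 alternative fits. Under vehicle the difference was -0.13 (SE 0.141, adjusted p = 0.480), and neither response to Combo passed.

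The glial genes that SOX10 drives in Schwann cells were checked as markers of nerve tissue. Foxd3 and Pmp2 had no count in any group. The list summed to 387 to 405 and 253 to 387 TPM in p53ERTAM tumors with Combo and with vehicle, and 296 to 340 and 308 to 334 TPM in EV tumors with Combo and with vehicle. Of 15 genes tested, 5 were higher and 2 lower in p53ERTAM than in EV tumors under vehicle, and 5 higher and 1 lower under Combo. The list median was 0.24 on the log2 scale under vehicle and 0.42 under Combo, against 0.01 and 0.06 over all genes. Ngfr, a neurotrophin receptor gene that basal mammary cells also express, was lower by -2.36 under vehicle (SE 0.452, adjusted p = 0.00173) and -4.07 under Combo (SE 0.496, adjusted p = 6.076e-05). S100b was higher by 2.92 under vehicle and 2.41 under Combo, and Mbp was lower by -0.65 under vehicle (SE 0.104, adjusted p = 0.000485). Pmp22 and Erbb3 were higher under Combo by 1.24 and 0.42. Gjc3 had no count in the EV vehicle libraries and 256 counts in the p53ERTAM vehicle libraries. The count of 1 lower under Combo became 2 without EV vehicle replicate 2, EV Combo replicate 2 or p53ERTAM vehicle replicate 3, and 3 without p53ERTAM vehicle replicate 2.

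Grhl2, which maintains epithelial junctions and represses mesenchymal genes, at chr15:37233036-37363569 on the plus strand, had 87.9, 83.4 and 73.6 CPM in p53ERTAM Combo libraries, 94.2, 96.4 and 92.04 CPM in p53ERTAM vehicle libraries, 143, 114 and 157 CPM in EV Combo libraries and 116, 112 and 115 CPM in EV vehicle libraries. The vector groups did not overlap under either treatment. Grhl2 was 1.69-fold lower in p53ERTAM than in EV tumors under Combo (log2 fold change -0.76, SE 0.116, adjusted p = 0.000229), while the change of -0.28 under vehicle did not pass (SE 0.116, adjusted p = 0.0721), except without EV Combo replicate 2 (adjusted p = 0.0359). In the fit of protein-coding genes alone the value under Combo was -0.87. The difference of Grhl2 between Combo and vehicle was -0.21 on the log2 scale in p53ERTAM tumors (adjusted p = 0.294) and 0.27 in EV tumors (adjusted p = 0.0760, and 0.0133 without EV Combo replicate 2). Among protein-coding genes alone the EV value passed at 0.40 (adjusted p = 0.0170), and it passed with DESeq2's size factors in edgeR (adjusted p = 0.0388) and DESeq2's own test (adjusted p = 0.0287). The difference between the responses of the vectors was -0.48 (SE 0.163, adjusted p = 0.0357; -0.66 among protein-coding genes alone, adjusted p = 0.0104). Leaving out p53ERTAM Combo replicate 2 or 3, p53ERTAM vehicle replicate 1 or 2, EV Combo replicate 1 or 3, or EV vehicle replicate 2 ended that call, with adjusted p from 0.0505 to 0.0927, as did the fit with the replicate block (adjusted p = 0.0508) and the fit with no filter on low counts (adjusted p = 0.0638). The antisense gene Gm16136 shares 169 exon bases, or 3.07%, of Grhl2 and held 1998 counts against 24473. The strand setting of the counting is not given in the sources used here, so reads of the shared bases cannot be assigned.

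Junction genes linked to GRHL2 were lower mainly under vehicle. Of 20 tested, 15 were lower and none higher in p53ERTAM than in EV tumors under vehicle, with a list median of -0.74 on the log2 scale against 0.01 over all genes. Ap1m2, a sorting-adaptor gene, was lower by -1.07 (SE 0.133, adjusted p = 0.000111), the splicing regulator gene Esrp2 by -1.22 (SE 0.168, adjusted p = 0.000202), the claudin gene Cldn3 by -1.07 and the epithelial repressor gene Ovol1 by -1.23. Under Combo, where Grhl2 itself was lower, 4 were lower and 4 higher with a median of -0.09, and the named ones were Tjp3 (-1.01) and Esrp2 (-0.85), both lower, and Cldn4 (0.80) and the protease inhibitor gene Spint2 (0.73), both higher. With Combo in EV tumors 13 were lower and none higher, with a median of -0.54 against -0.07 over all genes. Among them were Cdh1, which encodes E-cadherin, by -0.96 (SE 0.134, adjusted p = 0.000279), Spint2 by -1.02, Cldn7 by -1.06 and Rab25 by -0.95. In p53ERTAM tumors Combo changed none of the 20 past the threshold, where the background of calls was 6.28%. The count of 4 higher under Combo became 2 without EV Combo replicate 1 or p53ERTAM Combo replicate 3, and the count of 4 lower became 2 without the last of these.

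Trp63 encodes p63, the p53-family factor of basal mammary cells and epidermis, and lies at chr16:25683763-25892102 on the plus strand. It had 14.5, 15.8 and 11.2 CPM in p53ERTAM Combo libraries, 40.3, 23.2 and 40.9 CPM in p53ERTAM vehicle libraries, 120, 95.2 and 79.9 CPM in EV Combo libraries and 87.1, 117 and 129 CPM in EV vehicle libraries. The p53ERTAM Combo libraries were the 3 lowest, the p53ERTAM vehicle libraries came next without overlap, and all EV libraries were higher and overlapped between treatments. Trp63 was 7.12-fold lower in p53ERTAM than in EV tumors under Combo (log2 fold change -2.83, SE 0.242, adjusted p = 5.479e-06) and 3.19-fold lower under vehicle (-1.67, SE 0.230, adjusted p = 0.000220). In the fit of protein-coding genes alone the value under Combo was -2.94.

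Combo lowered Trp63 2.53-fold in p53ERTAM tumors (log2 fold change -1.34, SE 0.234, adjusted p = 0.0116), the 1 call among the 10 genes in this comparison, beside a background of 6.28% of all genes (3.3% higher and 2.98% lower). In EV tumors the change was -0.18 (SE 0.222, adjusted p = 0.551). That comparison had 3 calls among the 10 genes, Foxi1 among them, and a background of 39.9% (18.8% higher and 21.1% lower). The difference between the 2 responses was -1.16 on the log2 scale (SE 0.321, adjusted p = 0.0144; -1.33 among protein-coding genes alone), and it passed in 17 of 18 alternative fits, the exception being the fit without a low-count filter (adjusted p = 0.0504). Trp63 and Grhl2 were the 2 of 9 genes with a called difference between responses, against 36% of all genes tested (18.8% higher and 17.2% lower). Without p53ERTAM vehicle replicate 1 (adjusted p = 0.0586), p53ERTAM Combo replicate 1 (adjusted p = 0.0624) or p53ERTAM Combo replicate 3 (adjusted p = 0.0725) the response in p53ERTAM tumors did not pass, fits in which 121, 77 and 96 genes were called in place of 1129.

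Epidermal and hemidesmosome genes linked to TP63 were lower in p53ERTAM tumors as well. Of 20 tested, 13 were lower and 2 higher than in EV tumors under vehicle and 10 lower and 1 higher under Combo. The list median was -0.91 on the log2 scale under vehicle, against 0.01 over all genes, and -0.57 under Combo, against 0.06. Fgfr2, a receptor of fibroblast growth factors, had 1.22 to 1.69 CPM with Combo and 8.22 to 11.7 CPM with vehicle in p53ERTAM tumors, against 48.1 to 61.5 CPM with Combo and 42.8 to 59.2 CPM with vehicle in EV tumors. It was lower by a log2 change of -5.27 under Combo (SE 0.217, adjusted p = 2.761e-08) and -2.37 under vehicle (SE 0.182, adjusted p = 7.544e-06). Col17a1, the hemidesmosome collagen, was lower by -5.79 under Combo and -2.74 under vehicle, Krt14, the basal keratin, by -4.00 under Combo (SE 0.298, adjusted p = 2.629e-06), and Lama3, a laminin-332 chain gene, by -2.59 under Combo and -1.59 under vehicle. Dst, a cytoskeletal linker gene, was higher by 1.94 under vehicle (SE 0.238, adjusted p = 0.000129), and the count of 2 higher became 1 when p53ERTAM vehicle replicate 3 or either of the EV vehicle replicates 1 and 3 was left out.

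With Combo in p53ERTAM tumors 6 of the 20 TP63-linked genes fell and none rose, beside the background of 2.98% lower. Fgfr2 fell by 2.89 on the log2 scale (SE 0.210, adjusted p = 4.523e-05), Col17a1 by 2.62 (SE 0.390, adjusted p = 0.00663), Krt14 by 2.13 (SE 0.283, adjusted p = 0.00417) and Bnc1, a basal-epithelial zinc-finger gene, by 2.0 (SE 0.427, adjusted p = 0.0210). The list median in this comparison was -0.10, against 0.00498 over all genes, and 14 of the 20 genes did not pass. The count was 3 without p53ERTAM vehicle replicate 1, p53ERTAM Combo replicate 1 or p53ERTAM Combo replicate 3.

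**Figure D4:**
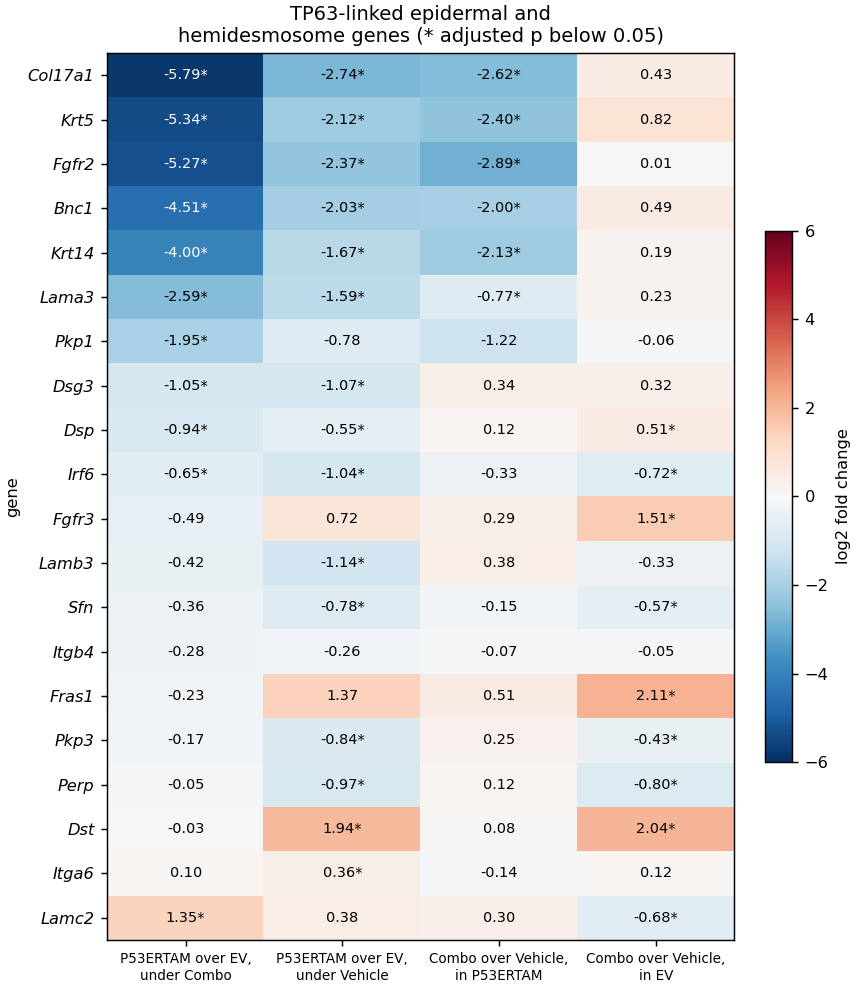
Log2 fold changes of the 20 TP63-linked genes in 4 comparisons, ordered by the first column, with stars at an adjusted p below 0.05. Col17a1, Krt5, Fgfr2, Bnc1, Krt14 and Lama3 are lower in the first 3 columns and show no called change with Combo in EV tumors.

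Basal and myoepithelial genes split in direction. Of 18 tested from a list of 20, 6 were lower and 4 higher in p53ERTAM than in EV tumors under vehicle, and 7 lower and 3 higher under Combo. The list median was -0.20 on the log2 scale under vehicle and -0.14 under Combo, against 0.01 and 0.06 over all genes. Among the lower ones were the basal-epithelial genes Cdh3 (-1.79 under vehicle and -1.76 under Combo on the log2 scale), Egfr (-1.99 and -2.45) and Krt14 (-1.67 and -4.00), and Krt5 was lower by -2.125 under vehicle (adjusted p = 0.0129) and -5.34 under Combo (SE 0.672, adjusted p = 0.000105). Igfbp3, a growth-factor-binding protein gene, exceeded its EV level by 1.38 under vehicle (SE 0.238, adjusted p = 0.000959). The count of 4 higher became 1 without EV vehicle replicate 3 or p53ERTAM vehicle replicate 3. Acta2, a smooth-muscle actin gene used as a myoepithelial marker, differed by -0.13 under vehicle (adjusted p = 0.771) and -0.22 under Combo (adjusted p = 0.571), neither past the threshold. Which cells of the bulk tumors its reads came from was not tested. Terminal keratinocyte genes were absent or rare, with a summed level of the 12 listed at 2.85 to 8.34 TPM over all libraries and Flg listed at 0 in each group.

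Markers of cell content moved with the same contrasts. The epithelial list shares genes with lists described above, so its counts are not a separate result. Cdh1, Cldn3, Cldn7, Epcam, Esrp1 and Rab25 are also in the GRHL2-linked list, and Krt8, Krt18 and Krt19 in the hormone-sensing list. Epithelial markers summed to 3416 to 4230 TPM with Combo and 2146 to 3345 TPM with vehicle in p53ERTAM tumors, and 3451 to 4516 TPM with Combo and 5055 to 6388 TPM with vehicle in EV tumors. Of 10 tested, 9 were lower and none higher in p53ERTAM than in EV tumors under vehicle, with a median of -0.92 on the log2 scale, and 2 were lower and 1 higher under Combo, with a median of -0.12. Under Combo the 1 higher became 0 without EV vehicle replicate 1, EV Combo replicate 1 or any 1 p53ERTAM Combo replicate and 2 without p53ERTAM vehicle replicate 2, and the 2 lower became 1 without p53ERTAM Combo replicate 3.

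All 12 proliferation genes were lower in p53ERTAM than in EV tumors under both treatments, with medians of -1.17 under vehicle and -0.82 under Combo on the log2 scale. Fibroblast markers were higher for 7 of 10 genes under vehicle and 2 of 10 under Combo, and their summed level was 690 to 977 TPM with Combo and 676 to 1381 TPM with vehicle in p53ERTAM tumors, against 519 to 953 TPM with Combo and 241 to 255 TPM with vehicle in EV tumors. Endothelial markers were higher for 8 of 10 genes under vehicle and 7 of 10 under Combo, the last being 4 without EV Combo replicate 1 or 2 or p53ERTAM Combo replicate 1 or 3. Macrophage markers were higher for 10 of 12 genes under Combo and 1 of 12 under vehicle (3 without EV vehicle replicate 1), and for 9 of 12 with Combo in p53ERTAM tumors, where the count was 4 without p53ERTAM Combo replicate 1 or p53ERTAM vehicle replicate 1 or 2, and 3 without p53ERTAM Combo replicate 3. Lymphocyte markers were higher for 4 of 8 genes under Combo (2 without EV Combo replicate 3 or p53ERTAM Combo replicate 1 or 3), no adipocyte marker of 4 tested changed, and no skeletal muscle marker passed the low-count filter. None of these lists contains a member, and their part in the members' differences was not tested.

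**Figure D5:**
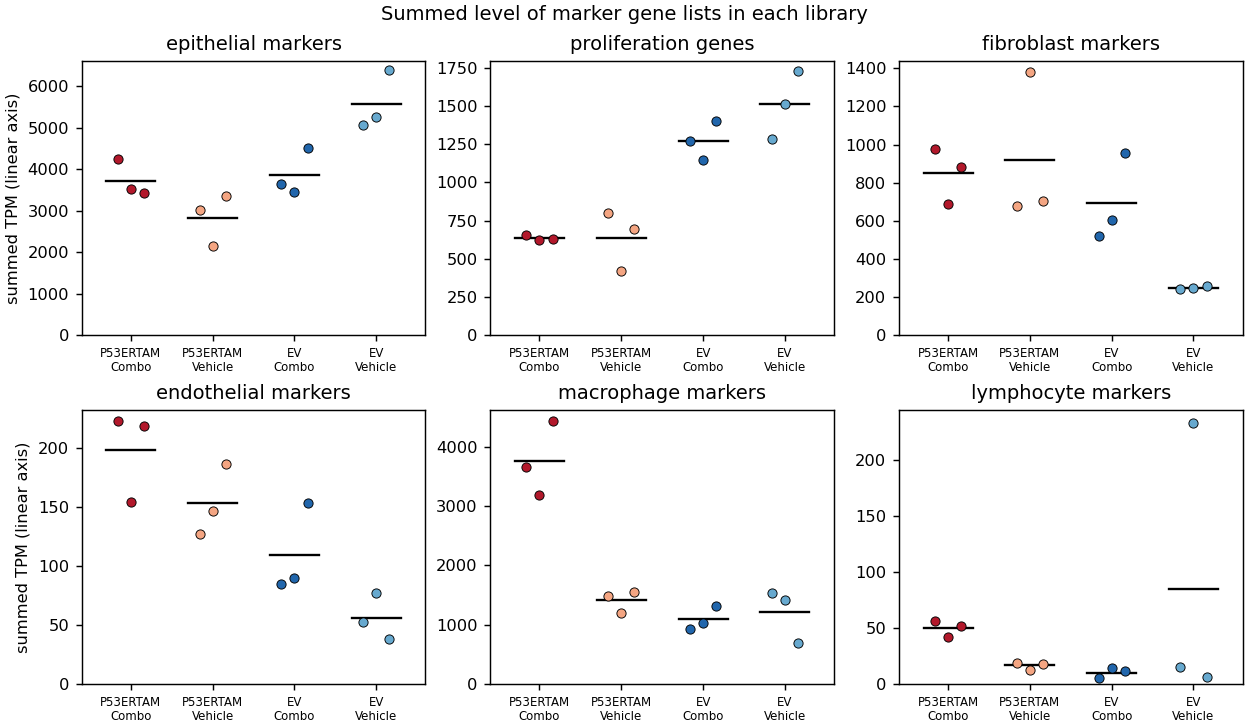
Summed TPM of 6 marker lists in every library, on linear axes from 0, with points for libraries and bars for group means. Epithelial markers are highest in EV vehicle libraries, proliferation genes are lower in all 6 p53ERTAM libraries than in the EV libraries, macrophage markers are highest in p53ERTAM Combo libraries, and 1 EV vehicle library stands out at 233 TPM of lymphocyte markers.

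Averaged over both treatments, 6 of 9 genes were lower in p53ERTAM than in EV tumors and none higher, beside a background of 40.9% (20.6% higher and 20.4% lower), with a median of -0.66 on the log2 scale against 0.01 over all genes. These were Trp63 (-2.25), Foxa1 (-1.28), Ehf (-1.21), Elf5 (-1.20), Sox9 (-0.66) and Grhl2 (-0.52), while Sox10 (-0.25, adjusted p = 0.0578), Elf3 (-0.24, adjusted p = 0.191) and Gata3 (0.48, adjusted p = 0.254) did not pass. The Foxa1 call held in 16 of 18 alternative fits, with adjusted p up to 0.0916 in the others, 1 of which left out EV Combo replicate 2 (adjusted p = 0.0567). Sox10 passed without EV Combo replicate 2 (adjusted p = 0.0229) or p53ERTAM vehicle replicate 2 (adjusted p = 0.0435) or 3 (adjusted p = 0.0438) and among protein-coding genes alone (-0.27, adjusted p = 0.0369), with DESeq2 (adjusted p = 0.0446), with voom (adjusted p = 0.0186) and with no filter on low counts (adjusted p = 0.0371).

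Genes with the levels most like those of a member over the 12 libraries were ranked by Pearson's r of log2 CPM among 12979 protein-coding genes, as a description with no test, over libraries that share 4 groups. For Trp63 the closest were Trim29 and Fat2, both at r = 0.991, then Pard6g, Fgfr2 and Fam83c. For Foxi1 they were Ptpn13 (r = 0.989), Notch1, Huwe1, Rbmx and Clspn, and for Elf5 they were Usp15 (r = 0.983), Parp1, Ctps2, Farp2 and Prlr. For Ehf they were Atp10b (r = 0.987), Parp1, Gjb2, Smchd1 and Cds1. The closest genes to Elf3 (B3galnt2, r = 0.859), Sox10 (Dock1, r = 0.900) and Foxa1 (Rfx7, r = 0.911) had lower values than these.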

How the data were processed

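Bulk tumor RNA was sequenced after a stranded, ribosomal-RNA-depleting library preparation, per the labels' protocols. The submitters' processing notes name the build GRCm38.p5, the aligner STAR, the counter featureCounts and the read tools fastp and FastQC, without versions or settings. The deposited files hold raw gene counts for 12 libraries, 1 file each. Gene names, biotypes and exon lengths came from GENCODE M21 on GRCm38 (52403 of 52636 identifiers matched), and promoter sequences from RefSeq on GRCm38.p6 (6 windows for 5 of the 10 genes).

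Counts were filtered with filterByExpr over the 4 groups, which kept 17970 of 31622 genes with a count, scaled by TMM (factors 0.941 to 1.05) and tested with edgeR 4.0.16 (R 4.3.3) in 1 quasi-likelihood fit of the 12 libraries with 8 residual degrees of freedom. The 6 contrasts were p53ERTAM against EV with Combo, with vehicle and averaged, the effect of Combo in either vector, and the difference between the 2 responses to Combo. Benjamini-Hochberg adjustment covered all genes tested. CPM use TMM-scaled library sizes, and TPM use summed exon length. The fit was tested on simulated data. The alternatives were DESeq2 size factors, DESeq2 1.42.0, voom with quality weights (limma 3.58.1), no filter, protein-coding genes alone, a replicate block, the 2 groups alone and leaving out each library. Same-numbered libraries had a median correlation of -0.0262, and the numbers were not used as pairs in the main fit. Whether they mark a shared batch was not tested.

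The 10 genes and the 20 gene lists were chosen with earlier results of these data known. Each gene of the 10 is named, and of each list up to 4 genes of smallest p in the comparison described. Neighbouring genes and genes that mark a cell type or change a library's composition are named where a check needs them. Acta2 among them was chosen after its values were seen. Library totals of 13484873 to 24424964 counts set the precision, and p-values cover the spread between libraries.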

Additional observations from a re-analysis of the deposited data

Results flagged for a closer look

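The results below differed between vectors in their response to Combo by the test of the difference itself (Combo effect in p53ERTAM minus Combo effect in EV, log2 scale, edgeR's quasi-likelihood test with Benjamini-Hochberg adjustment), a contrast that called 36% of all genes tested. Among the 10 lineage factors these were Trp63 at -1.16 (SE 0.321, adjusted p = 0.0144) and Grhl2 at -0.48 (SE 0.163, adjusted p = 0.0357). The Grhl2 call was lost in 9 of 18 alternative fits, which were 7 of the 12 fits that each left out 1 library, the fit with the replicate block (adjusted p = 0.0508) and the fit with no filter on low counts (adjusted p = 0.0638). Foxi1 was not tested here.

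Among the other genes named, those lower by this measure were the TP63-linked and basal genes Krt5 (-3.22), Col17a1 (-3.04), Fgfr2 (-2.90), Bnc1 (-2.49), Krt14 (-2.33), Dst (-1.96) and Lama3 (-0.999). The list split in direction: of the 20 TP63-linked genes 7 were lower and 4 higher, beside 17.2% lower and 18.8% higher over all genes. Unlike the others, Dst rose with Combo in EV tumors, by 2.04 (adjusted p = 0.000151). The ionocyte gene Atp6v1b1 differed by -2.14, the Sox9 neighbour BC006965 by -1.74, the grainyhead-family gene Tfcp2l1 by -2.13 and the mesenchymal regulator gene Zeb1 by -1.52. Of the cartilage genes, Col11a2 differed by -4.99, Snorc by -3.17, Col11a1 by -2.61, Col2a1 by -2.53, Col9a2 by -1.33 and Col9a3 by -0.87. Of 10 fibroblast markers 5 were also lower and none higher, from Col1a1 (-2.00) to Pdgfrb (-1.14). Their part in these values was not tested. Gjc3 gave a fitted value of -8.21, which is no bound because its EV vehicle libraries held no count.

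Genes higher by this measure were the epithelial genes Rab25 (1.27), Epcam (1.20), Cdh1 (1.13), Spint2 (1.11), Krt8 (0.97), Cldn4 (0.96), Cldn7 (0.94), Cldn3 (0.90) and Ap1m2 (0.79), the milk genes Wfdc18 (1.69) and Mfge8 (0.65), the paralogs Elf1 (0.87) and Grhl1 (0.58), and Mbp (0.76). The rise was not confined to these: 8 of 12 macrophage markers and 3 of 8 lymphocyte markers were also higher, and none lower. All of these responses use the EV Combo libraries, which stood apart in composition, and the part of that difference was not tested. Restricting the fit to protein-coding genes gave -1.33 for Trp63 (adjusted p = 0.00817) and -0.66 for Grhl2 (adjusted p = 0.0104).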

How the results depend on the processing

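Of 1120 values of the 10 genes recomputed under 7 other settings or without 1 replicate, 1053 kept their direction and side of the threshold, 40 lost and 27 gained a call, and none reversed. The calls of Elf5, Ehf and Trp63 between vectors, of Sox9 under vehicle and of Grhl2 under Combo held throughout. With Combo in EV tumors 3 of the 10 genes were called, Foxi1 among them. The count was 1 with no low-count filter, 1 in the fit of the 2 groups alone, and 1 to 4 without 1 replicate (1 without EV Combo replicate 3). With Combo in p53ERTAM tumors 1 was called, 2 by DESeq2 and 2 in the fit of the 2 groups alone (Foxa1 added both times), and 0 to 2 without 1 replicate. For the difference between responses 2 were called, 1 with no low-count filter, and 1 to 3 without 1 replicate. Between vectors the counts were 4 to 5 under vehicle, 4 to 7 under Combo and 6 to 7 over both without 1 replicate. Same-numbered libraries correlated at r = -0.149 to 0.211 (median -0.0262, 18 pairs), and libraries of different numbers at -0.262 to 0.152 (median 0.0158, 36 pairs). These values cannot show whether libraries of the same number share a batch, which was not tested. With the replicate block the difference between responses had 1 call, Grhl2 being at adjusted p = 0.0508, and p53ERTAM against EV under Combo had 5. Genes called with Combo in p53ERTAM tumors numbered 1129, against 2353 by DESeq2, 3748 by voom, 1890 in the 2 groups alone and 77 to 2130 without 1 replicate, and for the difference between responses 6473, against 4086 among protein-coding genes alone. Restricting to protein-coding genes shifted the median of all genes by 0.130 with Combo in EV tumors, -0.109 between vectors under Combo and -0.180 for the difference between responses, and brought Grhl2 past the threshold with Combo in EV tumors (0.40, adjusted p = 0.0170). The alternatives for list counts and list genes were added after seeing the data: of 3001 values of named list genes none reversed, 66 lost and 21 gained a call. The causes were not tested. Gata3 and Foxi1 in p53ERTAM tumors rest on 10 to 78 counts per library.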

Other observations

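Relatives of the 10 genes by protein family were measured as well. Of 18 paralogs, 11 were tested, and in p53ERTAM against EV tumors 2 were higher and 3 lower under vehicle and 2 higher and 5 lower under Combo. Sox8, a relative of Sox9 and Sox10, exceeded EV by 1.58 on the log2 scale under vehicle (SE 0.234, adjusted p = 0.000312), and Elf4, an ETS factor of immune cells, by 1.02 under vehicle and 1.52 under Combo (SE 0.189, adjusted p = 5.302e-05). Lower were Grhl1 (-0.80) and Elf1 (-0.65) under vehicle, and Grhl3 (-2.10), Tfcp2l1 (-2.50) and Gata2 (-1.53) under Combo. The count of 2 higher under Combo became 1 without EV Combo replicate 3. Foxi2 had no count in any group, and Foxi3 averaged 0 and 0.154 CPM in p53ERTAM tumors with Combo and with vehicle, and 0.406 and 0.433 CPM in EV tumors with Combo and with vehicle.

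Other regulators of mammary lineages moved in both directions. Of 29 tested, 7 were higher and 6 lower in p53ERTAM than in EV tumors under vehicle, and 12 higher and 6 lower under Combo. The mesenchymal regulator genes Zeb1 and Twist1 were higher under vehicle by 2.53 (SE 0.211, adjusted p = 1.107e-05) and 2.19 on the log2 scale, and Twist1 by 2.73 under Combo. The prolactin-signal transducer gene Stat5a was higher by 0.97 under Combo (SE 0.122, adjusted p = 5.865e-05). Lower were Myb, by -1.82 under vehicle and -2.16 under Combo (SE 0.178, adjusted p = 3.241e-06), and Bcl11b, by -2.59 under vehicle (SE 0.289, adjusted p = 6.923e-05). Of 10 fibroblast markers 7 were higher under vehicle and 2 under Combo, and their part in these values was not tested.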
